A study of Mus musculus with 4 samples.

Results

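The RNA exosome was followed through 10 of its subunit genes, Exosc1, Exosc2, Exosc3, Exosc4, Exosc5, Exosc7, Exosc8, Exosc9, Exosc10 and Dis3, chosen by name from 13772 genes in the deposited tables. Exosc6 was not analysed here. The cells were muscle stem cells of wild-type C57BL/6 mice, young or aged, cultured for 7 days on polydimethylsiloxane (a silicone elastomer) that was soft (12 kPa) or stiff (29 kPa), in DMEM medium with 10% fetal bovine serum. Neither the age in months nor the number of mice is stated in the labels. Values for the 4 libraries are listed with young before aged and, within an age, soft before stiff. Each of the 4 combinations of age and substrate was 1 library of droplet-based 3′ single-cell RNA sequencing, so differences between libraries carry no replicate check and no test. By its title, the study was about RNA decay as a link between matrix stiffness and the fate of aged cells.

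The RNA exosome degrades and trims RNA from the 3′ end in nucleus and cytoplasm, among its substrates the precursors of ribosomal RNA, unstable nuclear transcripts and messenger RNAs whose poly(A) tail has been removed. Its barrel is a ring of proteins related to RNase PH (Exosc4 to Exosc9), inactive in mammals, under a cap of RNA-binding proteins (Exosc1, Exosc2 and Exosc3). RNA is threaded through to the nuclease Dis3, and a further nuclease, Exosc10, the counterpart of yeast Rrp6, joins in the nucleus. In mouse erythroid precursors and human epidermal progenitors the complex is known to hold back differentiation, and inherited changes in human EXOSC3, EXOSC8 or EXOSC9 cause disease with loss of motor neurons.

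The libraries held 1360, 1479, 1333 and 1738 cells, with 43961070 to 68222708 UMIs (molecules counted once each) per library and medians of 28611 to 37081 UMIs per cell. All 11 muscle stem cell and myoblast markers and all 20 myocyte markers searched were at 5 CPM or more in every library, so the labelled cells included differentiating ones. CPM is a gene's count in a cell scaled by that cell's total UMIs and averaged over cells. A UMI marks a molecule at its 3′ end, so levels need no division by transcript length. Endothelial markers summed to at most 2.67 CPM and immune markers to 3.29 and 3.99 CPM in the young and 14.0 and 14.96 CPM in the aged libraries, with Ptprc, the pan-leukocyte marker, at 0 in both young libraries and at most 0.089 CPM in the aged ones. Fibroblast markers summed to 38.6 to 64.4 CPM, pericyte markers to 97.0 and 97.1 CPM in young and 50.2 and 37.8 CPM in aged libraries, and Schwann and tenocyte markers, nearly all Scx, to 143 to 165 CPM in young and 296 to 305 CPM in aged ones. Their part in the age differences below was not tested. Young soft and aged stiff shared 1 cell barcode, and 0 were shared between the other pairs of libraries.

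The promoters of Exosc8, Exosc10 and Dis3 are shown because these genes moved together with proliferation below. Other members rose with it too, among them Exosc2, whose window is not shown. The promoters are RefSeq windows on GRCm38.p6, from 250 bases before to 50 bases after an annotated start, written 5′ to 3′ on the gene's strand, with matched words in capitals. In the Exosc8 window (chr3:54735315-54735614, minus strand) the capitals mark CAGCTG, the E-box bound by myogenic factors. In the Exosc10 window (chr4:148558463-148558762, plus strand, the second of 2 annotated starts) they mark the ETS family word CCGGAAG read on the other strand, once just upstream and once at the start itself. In the Dis3 window (chr14:99099721-99100020, minus strand) they mark an ETS word followed by CCAAT, the word bound by NF-Y.
Exosc8: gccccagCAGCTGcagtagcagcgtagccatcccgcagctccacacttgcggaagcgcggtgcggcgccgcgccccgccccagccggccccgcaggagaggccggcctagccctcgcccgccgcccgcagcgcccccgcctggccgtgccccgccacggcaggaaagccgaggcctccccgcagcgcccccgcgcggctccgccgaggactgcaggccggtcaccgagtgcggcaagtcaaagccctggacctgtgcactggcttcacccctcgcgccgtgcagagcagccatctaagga
Exosc10: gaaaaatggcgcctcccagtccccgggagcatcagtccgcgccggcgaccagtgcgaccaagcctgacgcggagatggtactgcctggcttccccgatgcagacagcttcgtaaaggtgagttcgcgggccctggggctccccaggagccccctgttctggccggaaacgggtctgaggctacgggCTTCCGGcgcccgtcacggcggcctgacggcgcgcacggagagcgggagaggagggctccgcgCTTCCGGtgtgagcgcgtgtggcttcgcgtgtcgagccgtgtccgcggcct
Dis3: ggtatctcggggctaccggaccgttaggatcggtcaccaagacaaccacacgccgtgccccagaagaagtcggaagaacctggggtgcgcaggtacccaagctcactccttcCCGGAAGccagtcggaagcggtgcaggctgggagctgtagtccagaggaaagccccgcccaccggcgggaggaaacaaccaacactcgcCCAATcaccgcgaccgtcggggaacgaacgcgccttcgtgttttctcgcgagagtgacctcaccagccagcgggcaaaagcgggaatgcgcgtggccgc
Windows were found for 8 of 10 members. Of these, 3 held the ETS word (8.86% of 32851 mouse promoters of that length did), 4 held CCAAT (37.4%), 2 the myogenic E-box (16.3%), and Exosc5 alone held both the NRF1 word (0.971%) and the Myc E-box CACGTG (7.15%), all searched on both strands. None of the 8 held the E2F words TTTCCCGC, TTTGGCGC, TTTCGCGC or TTTGCCGC (2.26% of promoters) or the cell cycle homology word TTTGAA (17.9%). Exosc10 counted through its second window alone, and the window of its first start held none of the words searched. A match is a word and not a shown binding site, and a missing word says nothing of the factor.

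All 10 members were expressed at low to moderate levels, and all 10 passed the filter of a mean of 5 CPM over the libraries, which 9546 genes passed. Summed over the 10, the level was 424, 428, 347 and 346 CPM in the 4 libraries. The young libraries lay above both aged ones, and the substrates lay close together within each age. Averaged over the libraries, the order ran from Exosc2 (73.9 CPM) and Exosc4 (66.1) through Exosc9 (41.3), Exosc5 (38.9), Exosc8 (35.4), Exosc1 (33.0), Exosc7 (31.9) and Exosc3 (29.3) to Exosc10 (18.4) and Dis3 (18.0). Only the steps from Exosc4 to Exosc9 and from Exosc3 to Exosc10 were free of overlap between libraries. The other neighbours did not differ beyond the spread between libraries. Both nuclease genes thus stood below each of the 8 cap and ring genes measured on average, at about the 37th percentile of the genes passing the filter (37.6 for Exosc10 and 36.96 for Dis3), and Exosc2 at percentile 78.5.

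Among the cap genes, Exosc1 (a protein with an S1 RNA-binding domain) was the most even, with 34.1, 33.7, 33.0 and 31.4 CPM. Exosc3, also a cap protein, had 33.4, 27.8, 28.1 and 27.8 CPM, with young soft above the other libraries. Exosc2, the remaining cap protein, had 87.1, 100.3, 54.0 and 54.3 CPM, and both young libraries lay far above both aged ones.

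In the ring, Exosc4 alone was higher in aged cells, with 56.5 and 60.9 CPM in the young and 71.8 and 75.2 CPM in the aged libraries. Its ring partner Exosc9 had 42.3, 41.0, 41.9 and 39.97 CPM and was nearly level over the libraries. Exosc5 had 40.6 and 43.9 CPM in young and 35.0 and 36.2 CPM in aged cells. Exosc8, which pairs with Exosc5 in the ring, had 46.9 and 44.8 CPM in young but 25.2 and 24.7 CPM in aged cells. Its place in the order therefore went from the third member in both young libraries to rank 8 in both aged ones. Exosc7 had 36.0, 32.5, 29.8 and 29.4 CPM, the young libraries being the higher ones.

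The nuclease genes followed the direction of Exosc8. Exosc10 had 22.5 and 22.0 CPM in young and 14.6 and 14.6 CPM in aged libraries. Dis3 had 24.4, 20.8, 14.1 and 12.9 CPM. For both, the lower young library was above the higher aged one.

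**Figure D1:**
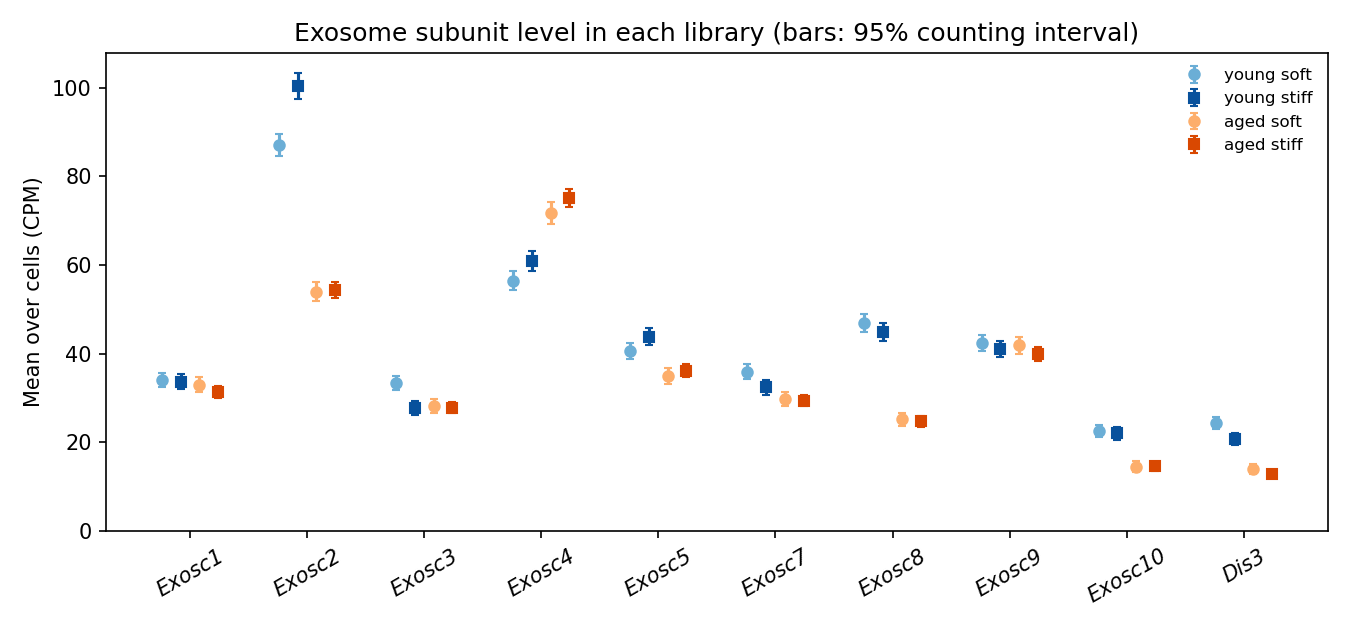
Mean CPM over cells (vertical axis) of each subunit in the 4 libraries (points), with bars for the 95% Poisson counting interval of its summed UMIs scaled to the point. Exosc2, Exosc8, Exosc10 and Dis3 are lower and Exosc4 is higher in both aged libraries than in both young ones, whereas soft and stiff points of 1 age lie close together.

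Stiffness moved no member past the size used for a call, 25% higher or 20% lower, in either age. In young cells 0 of 10 members passed it in either direction, where 0.461% of 9546 genes were higher and 1.49% lower by that much on stiff. The farthest members were Exosc3 (33.4 CPM on soft and 27.8 on stiff, log2 ratio -0.26) and Dis3 (-0.22) below and Exosc2 above (0.20), with a median of -0.04 over the 10 and -0.03 over all genes. The ratio of summed UMIs, stiff over soft, was 0.836 for Exosc3 (exact conditional binomial 95% interval 0.775 to 0.901), 0.853 for Dis3 (0.782 to 0.929) and 1.16 for Exosc2 (1.11 to 1.21). These intervals cover counting error only and leave out the spread between cells. That spread was wide for Exosc2, with a variance over mean of UMIs per cell of 19.4 on soft and 13.7 on stiff. Its interval is therefore too narrow. The intervals of Exosc4 (1.03 to 1.14), Exosc5 (1.04 to 1.18) and Exosc7 (0.850 to 0.978) also left out 1, and those of the 4 remaining members took it in. In aged cells 0 of 10 members passed it, against 0.629% of genes higher and 3.95% lower. Their log2 ratios ran from -0.11 for Dis3 to 0.07 for Exosc4, with a median of -0.02, and the interval of every member's ratio of summed UMIs took in 1. Of 24 genes of G2 and M phase, 20 were lower on stiff in aged cells (median -0.45) and 0 in young cells. Among the 21 exosome cofactors tested (adaptors and helicases that bring RNA to the complex), 0 passed the fold in either age, with medians of -0.07 and -0.07. Of 15 other 3′ exonuclease and uridylation genes 0 passed it as well. Of 70 ribosome biogenesis genes, whose products make the ribosomal RNA that the exosome trims, 0 passed it in either age.

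Age went with larger differences, in both directions. On soft, 4 of 10 members were lower past that size in aged cells, Exosc8 (log2 ratio -0.87), Dis3 (-0.76), Exosc2 (-0.68) and Exosc10 (-0.60), and 1 was higher, Exosc4 (0.34). Of all genes 32.7% were lower and 10.3% higher by that much, so counts of this size are near what the genes at large showed. On stiff the same 4 were lower, Exosc2 (-0.87), Exosc8 (-0.83), Dis3 (-0.65) and Exosc10 (-0.56), against 34.3% of genes, and 0 were higher, against 11.5%. Exosc4 there had a log2 ratio of 0.30, just under the fold. The median of all genes was itself below 0, at -0.15 on soft and -0.16 on stiff, and that of the members -0.25 and -0.20. With median-of-ratios scaling, which brings the median of all genes to 0.01 in both comparisons, 5 members were past the fold on each substrate, Exosc4 among them on stiff too (0.48). The shares of all genes given above are without that scaling. The ratio of summed UMIs, aged over young, was 0.508 on soft (0.472 to 0.547) and 0.506 on stiff (0.472 to 0.542) for Exosc8, and 1.28 (1.22 to 1.35) and 1.23 (1.17 to 1.29) for Exosc4. The aged-to-young comparisons on the 2 substrates share no library.

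Of other genes of the pathway some were lower in aged cells and none of those listed was higher past the call size, where 32.7% of all genes on soft and 34.3% on stiff were lower. Of the 21 cofactors, 11 were lower past the fold in aged cells on soft and 10 on stiff, and 0 were higher on either, with 5 of 21 above a ratio of 1 on each. Zcchc8, a scaffold of the nuclear exosome targeting complex, had 26.4 and 15.1 CPM in young and aged cells on soft and 23.2 and 15.1 CPM on stiff. Zc3h18, which links capped RNA to that complex, had 57.0 and 38.9 CPM on soft and 53.4 and 37.0 CPM on stiff. Of 15 other 3′ exonuclease and uridylation genes 7 were lower on each substrate, led by Eri1, which trims histone messages and ribosomal RNA (31.6 and 15.7 CPM on soft, 25.9 and 15.1 on stiff), and Parn, a poly(A)-specific ribonuclease (12.8 and 7.32, 12.1 and 6.89). Ribosome biogenesis genes gave 30 and 29 of 70 lower and 0 higher, among them the snoRNP gene Gar1 (47.3 and 28.1, 46.8 and 29.0 CPM).

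The libraries also differed in how many cells were cycling. A cell with at least 1 UMI of the proliferation marker Mki67 was called Mki67-detected, which held for 365 and 353 cells (26.8% and 23.9%) of the young and for 131 and 137 cells (9.83% and 7.88%) of the aged libraries. With every cell thinned to 5000 UMIs, which left out 0 cells, the shares were 19.6%, 18.5%, 6.23% and 4.83%. In the high Myog class described next, where cells have mostly left the cycle, they were 6.32%, 6.20%, 2.76% and 4.196% unthinned and 3.16%, 4.13%, 1.06% and 2.10% thinned, at median UMIs of 31995 to 40368. Mki67-detected cells had medians of 34587, 28523, 28769 and 28382 UMIs, against 35937, 28656, 33966 and 37698 in the remaining cells. Cells were also divided into Myog classes, low, middle and high, at 407 and 1819 CPM, bounds that put equal numbers of all cells in each class. Myog is the myogenic factor that drives differentiation. In the high class Mki67 averaged 20.7, 22.2, 7.25 and 14.3 CPM, against 257, 256, 124 and 80.4 CPM in the low class. The low class took 43.5%, 41.6%, 26.7% and 23.4% of the cells of the 4 libraries.

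Mki67-detected cells had higher levels of most subunits. Over the 4 libraries, each giving 1 mean per class, 8 of 10 members rose in them (limma with the library as a block, Benjamini-Hochberg adjusted p under 0.05 over 9706 genes) and 1, Exosc4, fell, where 51.8% of all genes were higher and 23.8% lower. The median of all genes was 0.25 (log2), and that of the members 0.41. Exosc8 stood at 110.4, 113, 89.8 and 97.8 CPM in Mki67-detected and at 23.6, 23.5, 18.1 and 18.5 CPM in other cells. Every Mki67-detected mean lay above every other mean, and aged Mki67-detected cells held several times the Exosc8 of young cells without Mki67. The log2 difference was 2.25 (SE 0.06, limma adjusted p = 2.3e-07; 103 ± 10.9 against 20.9 ± 3.02 CPM, mean ± SD, n = 4 libraries), higher than 96.9% of all genes.

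Both nuclease genes rose as well. Dis3 had 40.9, 37.7, 32.1 and 28.8 CPM in Mki67-detected and 18.4, 15.5, 12.1 and 11.5 CPM in other cells (log2 difference 1.23, SE 0.07, limma adjusted p = 7.7e-06). Exosc10 had 35.7, 32.8, 28.4 and 29.8 CPM against 17.7, 18.7, 13.1 and 13.3 CPM (0.98, SE 0.08, limma adjusted p = 3.8e-05). In both genes every Mki67-detected mean lay above every other mean.

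The remaining members moved less. Exosc2 had 112, 157, 71.4 and 101.5 CPM against 77.8, 82.6, 52.1 and 50.3 CPM (0.72, SE 0.10, limma adjusted p = 0.00055). For Exosc7 the means were 51.0, 46.7, 31.7 and 39.3 CPM against 30.5, 28.0, 29.6 and 28.6 CPM (0.50, SE 0.11, limma adjusted p = 0.0058), with aged soft showing only a small gap (0.10). Exosc9 (0.32), Exosc5 (0.31) and Exosc1 (0.19, limma adjusted p = 0.037) rose too, within 0.08 of the median of all genes or below it. Exosc3 had 43.0, 31.4, 30.02 and 26.6 CPM against 29.9, 26.6, 27.9 and 27.9 CPM and did not pass the test (0.19, limma adjusted p = 0.118).

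Exosc4 went the other way, with 51.1, 53.2, 57.4 and 58.4 CPM in Mki67-detected and 58.4, 63.2, 73.3 and 76.6 CPM in other cells (log2 difference -0.29, SE 0.06, limma adjusted p = 0.0035; lower in 4 of 4 libraries). With median-of-ratios scaling, which removes the shift common to all genes, 5 of the 9 calls stayed, Exosc8 (2.01), Dis3 (1.00), Exosc10 (0.75), Exosc2 (0.48) and Exosc4 (-0.53). The direction of Exosc1 (-0.05) and Exosc3 (-0.04) turned, and Exosc5, Exosc7 and Exosc9 no longer passed. The shares of all genes given for Mki67 are without that scaling. The call of Exosc1 was lost without young soft (limma adjusted p = 0.136), aged soft (0.099) or aged stiff (0.087), and Exosc3 passed without aged stiff (0.28, limma adjusted p = 0.044).

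The Mki67 classes also differed in differentiation. Acta1, the skeletal muscle actin, averaged 982 CPM in Mki67-detected and 11856 CPM in other cells. Within the low Myog class, 6 of 10 members rose with Mki67 and 0 fell, where 24.8% of 9811 genes were higher and 15.8% lower, with a median of all genes of 0.06. Exosc8 had 115, 115, 89.9 and 102.2 CPM with and 35.2, 34.5, 27.1 and 25.7 CPM without Mki67 (log2 difference 1.76, SE 0.09, limma adjusted p = 9.6e-06). Exosc2 (1.00, SE 0.11, limma adjusted p = 0.00061) and Dis3 (0.98, SE 0.09, limma adjusted p = 0.00022) followed, each above 93% of all genes (percentiles 93.6 and 93.4). Exosc10 (0.60, limma adjusted p = 0.011), Exosc7 (0.51, limma adjusted p = 0.013) and Exosc9 (0.41, limma adjusted p = 0.0101) rose as well. The gap was small for Exosc10 in young stiff (31.6 against 28.2 CPM, 0.16) and for Exosc7 in aged soft (31.4 against 28.5 CPM, 0.14).

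The 4 others did not pass there. Exosc4 had 50.9, 50.8, 58.7 and 57.1 CPM with and 56.7, 58.3, 67.6 and 79.2 CPM without Mki67, lower in every library (-0.25, limma adjusted p = 0.056). The calls of Exosc9 (limma adjusted p = 0.053) and Exosc10 (0.06) were lost without aged soft, and that of Exosc7 without young soft (0.0505) or young stiff (0.057). The low Myog class did not even out differentiation between cells with and without Mki67. Acta1 there averaged 126 CPM with and 3457 CPM without Mki67 (log2 difference -4.70, against -3.74 over all cells), and Myog 35.1 and 80.3 CPM. The cells without Mki67 also differed between ages in differentiation, with Acta1 at 1050 and 1170 CPM in young and 4421 and 7188 CPM in aged libraries; the part of these differences in the result was not tested.

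**Figure D2:**
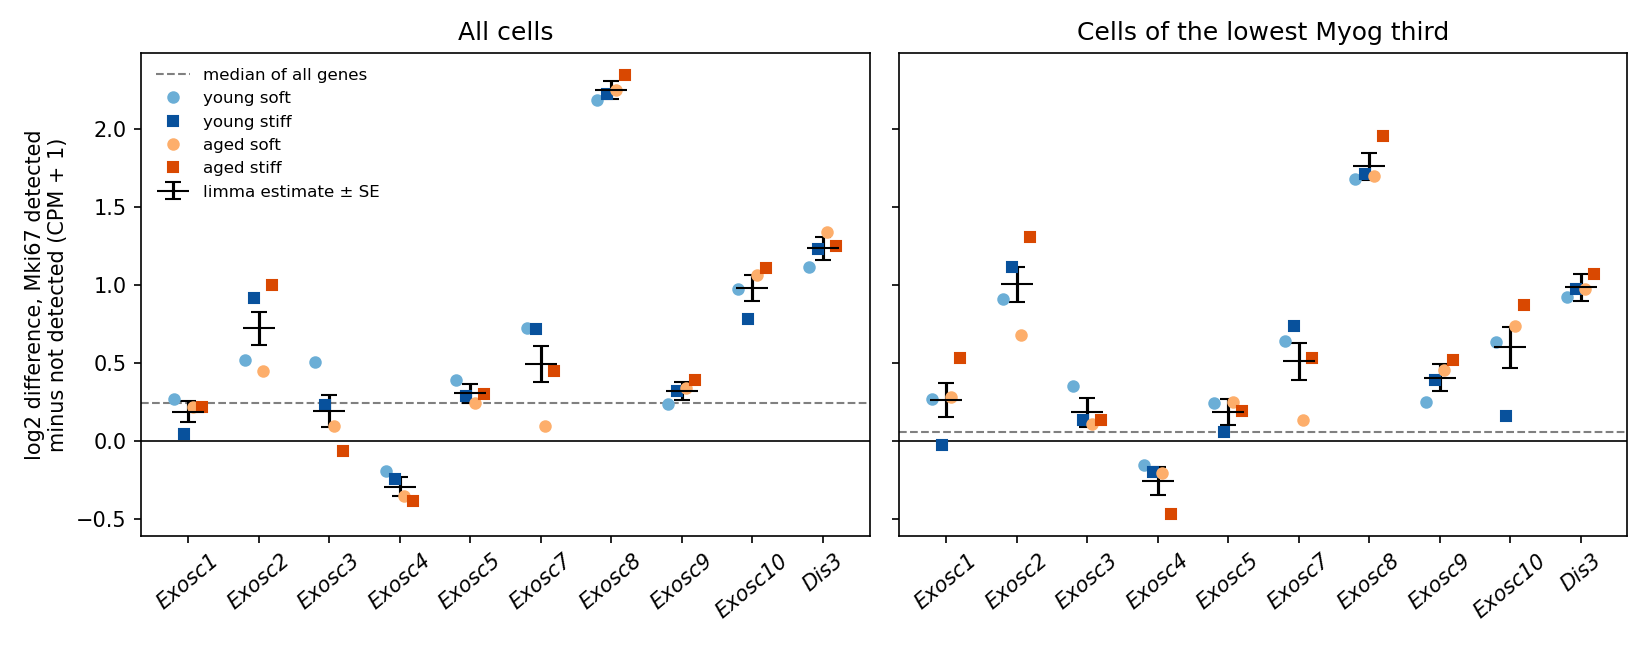
Log2 difference between Mki67-detected and other cells (vertical axis, CPM + 1) of each subunit in each library (points) with the limma estimate and SE (black), in all cells (left) and in cells of the low Myog class (right). The dashed line is the median of all genes, 0.25 on the left and 0.06 on the right; Exosc8 stands at the top of both panels and Exosc4 lies below 0 in every library.

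Most cofactors, other exonucleases and ribosome biogenesis genes rose with Mki67, as did 51.8% of all genes (median 0.25). Of 21 cofactors 15 rose and 1 fell over all cells (median 0.47), and 8 rose and 0 fell within the low Myog class (median 0.20), where 24.8% of all genes rose (median 0.06). The largest were Srrt, the cap-linked adaptor Ars2 (117 ± 1.95 against 47.3 ± 5.54 CPM), the non-canonical poly(A) polymerase Papd7 (25.9 ± 2.72 against 10.8 ± 1.03) and Zcchc8 (36.5 ± 2.90 against 16.6 ± 4.19; SD, n = 4). Of 16 other exonuclease and uridylation genes 11 rose and 1 fell, led by Eri2 (12.5 ± 3.20 against 2.30 ± 0.43 CPM) and Eri1 (53.8 ± 11.5 against 14.9 ± 2.73 CPM). Ribosome biogenesis genes gave 49 higher and 7 lower of 70, with Dkc1, the pseudouridine synthase of snoRNPs, at 103 ± 0.92 against 45.3 ± 1.34 CPM. Rrp12, a ribosome export factor, fell (11.2 ± 1.57 against 27.7 ± 2.62 CPM).

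Mki67-detected cells were also divided by the share of G2 and M phase genes in their S, G2 and M phase level. The bound was 60.8% in all libraries, so a cell on the S side could still hold more G2 and M than S phase level. This split was made after the data were seen and without a test, and the subunits differed again. Exosc8 had 102.3, 109, 64.3 and 87.8 CPM on the S side and 120.1, 116, 108 and 109.6 CPM on the G2 and M side, higher there in 4 of 4 libraries. Exosc7 had 56.4, 53.5, 34.3 and 47.2 CPM on the S side and 44.5, 40.7, 29.8 and 30.1 CPM on the G2 and M side, lower there in all 4. Exosc3 likewise had 45.6, 34.0, 31.7 and 29.8 CPM against 39.8, 29.1, 28.8 and 22.9 CPM. The aged sides held only 55 to 76 cells each. Exosc10 and Dis3 showed no order common to the libraries.

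Along Myog the subunits split. Between the high and the low class 3 of 10 members fell, Exosc8, Exosc10 and Dis3, and 1 rose, Exosc9, where 50.5% of 9614 genes were lower and 20.9% higher and the median of all genes was -0.22. Exosc8 had 75.6, 72.7, 45.4 and 42.4 CPM in the low and 25.9, 27.6, 20.9 and 23.5 CPM in the high class (log2 difference -1.20, SE 0.12, limma adjusted p = 0.00049). Exosc10 differed by -0.57 (SE 0.07, limma adjusted p = 0.0011) and Dis3 by -0.42 (SE 0.08, limma adjusted p = 0.0058). Exosc9 had 41.6, 39.9, 40.4 and 36.3 CPM in the low and 47.9, 48.7, 55.3 and 51.6 CPM in the high class, higher in 4 of 4 libraries (0.35, SE 0.07, limma adjusted p = 0.0058).

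Removing the Mki67-detected cells changed part of this. Dis3 then differed by -0.07 (limma adjusted p = 0.451) and Exosc2 by 0.72 (limma adjusted p = 0.0014), so that Dis3 was no longer called. Exosc8 was still called but its difference shrank from -1.20 to -0.53 (limma adjusted p = 0.0019). Exosc10 (-0.39, limma adjusted p = 0.016) and Exosc9 (0.48, limma adjusted p = 0.003) were also still called. Exosc2 in cells without Mki67 had 54.9, 73.9, 44.0 and 45.1 CPM in the low class. In the high class it had 108, 101, 72.2 and 77.5 CPM. Without the 5% of cells of each library highest in Exosc2, the low class had 41.4, 51.6, 23.8 and 25.5 CPM. The high class then had 45.1, 59.0, 31.5 and 35.0 CPM, a smaller gap in every library, which was not tested. With median-of-ratios scaling 7 members passed, adding Exosc1 (0.20), Exosc2 (0.57), Exosc3 (0.26) and Exosc4 (0.44) as higher, and Dis3 (-0.15) did not. The shares of all genes given for Myog are without that scaling. Exosc2 also passed without young stiff (0.44, limma adjusted p = 0.0049), Exosc7 without aged soft (-0.23, limma adjusted p = 0.043), and Exosc4 (0.19, 0.044) and Exosc5 (-0.26, 0.048) without aged stiff. Of 21 cofactors 12 fell and 1 rose, with Rbm7, the RNA-binding partner of Zcchc8, at 58.5 ± 5.93 CPM in the low and 29.5 ± 1.08 CPM in the high class. Of 16 other exonuclease genes 10 fell and 2 rose, and of 70 ribosome biogenesis genes 13 fell and 23 rose.

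The middle Myog class, described without a test, was the lowest of the 3 for the complex as a whole. The summed level of the 10 was 472, 495, 373 and 382 CPM in the low, 344, 338, 297 and 296 CPM in the middle and 417, 413, 382 and 389 CPM in the high class. The middle class was lowest in every library, also without Exosc2 (276, 263, 258 and 263 CPM). The share of all genes with this order is not given here. Genes outside the complex had it too, such as Slc25a5 with 475 to 694 CPM in the low, 327 to 399 in the middle and 475 to 530 in the high class. Among cells without Mki67, Exosc9 had 37.8, 34.7, 36.4 and 33.0 CPM in the low, 34.0, 31.4, 29.9 and 32.7 CPM in the middle and 46.5, 47.1, 55.0 and 50.9 CPM in the high class. Exosc10 had 13.2, 11.3, 9.34 and 10.2 CPM in the middle and 17.0, 17.5, 14.7 and 14.8 CPM in the high class. Over all cells of a class Exosc4 was lowest in the low class in every library, with 53.7, 54.7, 65.0 and 74.37 CPM against 56.6, 63.3, 76.9 and 74.44 CPM in the middle, a gap that was nearly nil in aged stiff. Among cells without Mki67 its middle class was the lowest in aged stiff alone (79.2 CPM in the low, 74.8 in the middle and 77.6 in the high class).

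**Figure D3:**
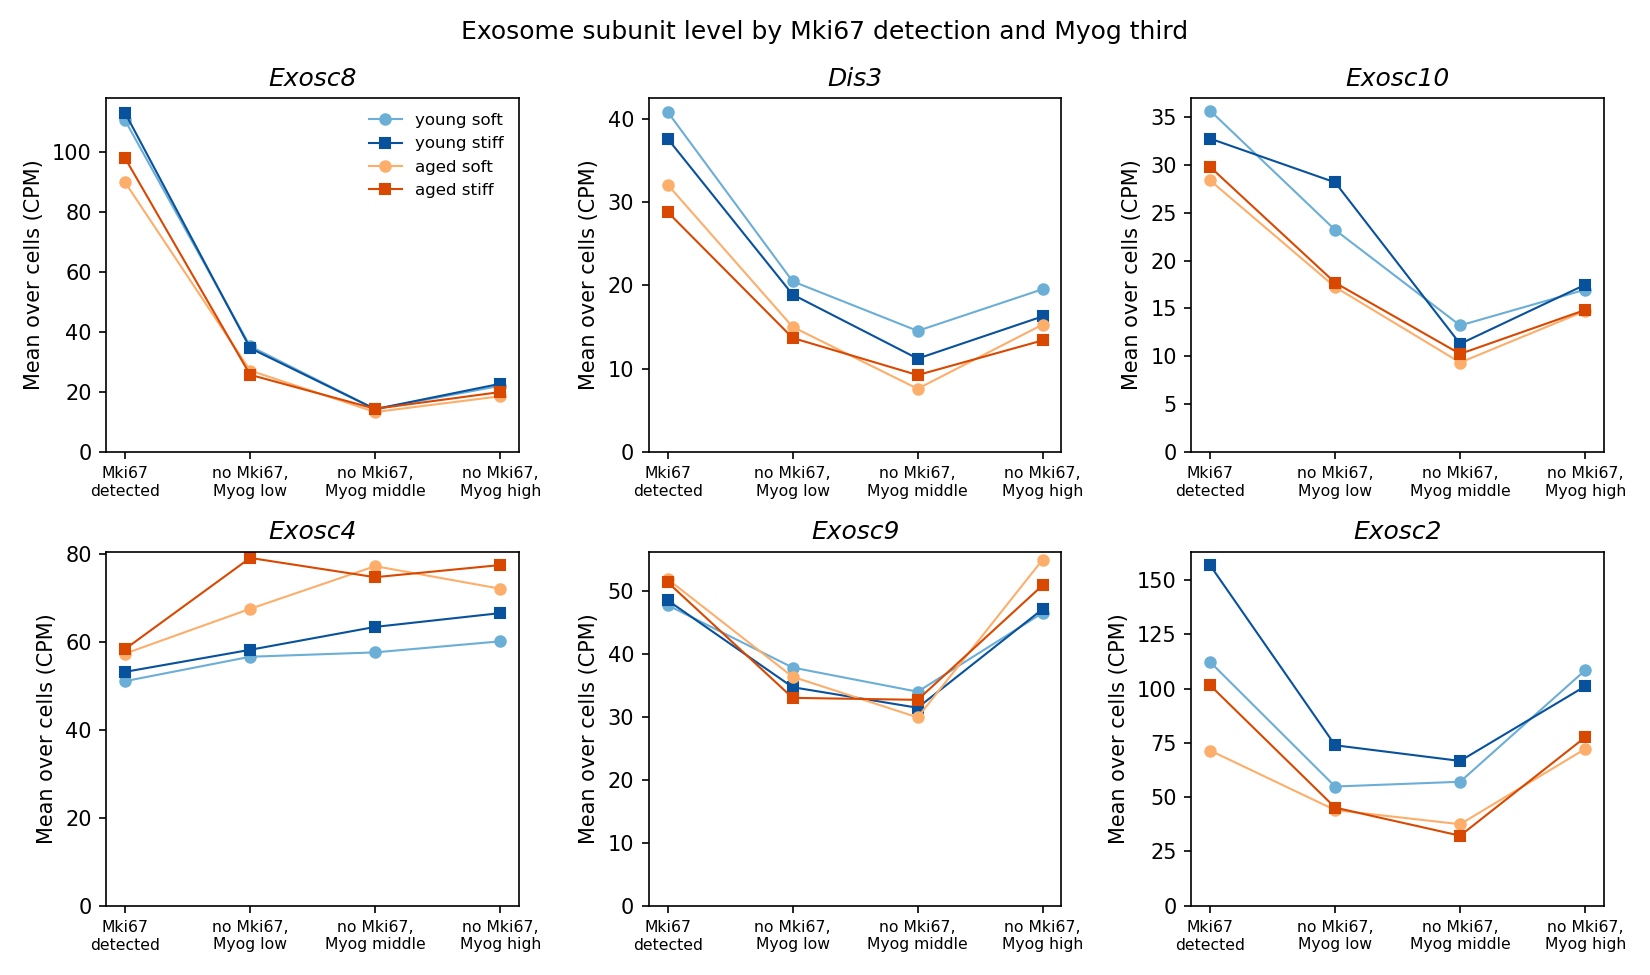
Mean CPM (vertical axis, from 0) of 6 subunits in Mki67-detected cells and in the low, middle and high Myog classes of cells without Mki67, with a line for each library. Exosc8, Dis3 and Exosc10 are highest with Mki67 in every library, Exosc9 is lowest in the middle class in 4 and Exosc2 in 3 of 4 libraries, and Exosc4 is lowest with Mki67.

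Over the 12 values of 4 libraries by 3 Myog classes, the genes most like the summed members were Apex1 (a base excision repair nuclease, Pearson's r 0.990), Slc25a5 (0.988), Gar1 (0.983), Mesd (0.981), Ssr2 (0.979) and Prmt3 (0.977), of 5555 genes at 20 CPM or more. Within the complex Exosc8 and Exosc10 ran closest (r 0.972), then Exosc10 and Dis3 (0.951). Exosc4 had a negative r with each of the 9 others, from -0.03 with its ring partner Exosc9 to -0.81 with Dis3. The 12 values share libraries and cells of unequal cycling, so these are descriptions.

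The age differences were also computed at equal class shares. When the aged cells were weighted to the shares that 4 classes (Mki67-detected, and the Myog classes without Mki67) took in the young library on the same substrate, which was added once the values were known, the log2 ratio of Exosc8 went from -0.87 to -0.28 on soft and from -0.83 to -0.22 on stiff. Exosc10 went from -0.60 to -0.32 and from -0.56 to -0.28, and Dis3 from -0.76 to -0.41 and from -0.65 to -0.34. The weighting changed cycling and differentiation shares at once, so the 2 cannot be told apart. Exosc2 moved less on soft, from -0.68 to -0.56, but on stiff nearly as far as Exosc10, from -0.87 to -0.61. Exosc4 moved little on either substrate, from 0.34 to 0.27 and from 0.30 to 0.25. Members past the call size numbered 3 instead of 5 on soft and 2 instead of 4 on stiff. The share of all genes past that size was not taken at these class shares, so these counts have nothing to be set against.

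Within Mki67-detected cells the aged libraries still had less Exosc2, with 71.4 against 112 CPM on soft (ratio of summed UMIs 0.622, interval 0.547 to 0.706) and 101.5 against 157 CPM on stiff (0.645, 0.579 to 0.718). In the split of these cells by phase, the gap lay mostly on the S side. Aged and young values there were 43.4 and 122 CPM on soft and 80.9 and 192 CPM on stiff. On the G2 and M side they were 91.7 and 100.005 CPM on soft and 125.7 and 126.04 CPM on stiff. That split had no test, and its aged sides held few cells. Exosc8 in all Mki67-detected cells had 89.8 against 110.4 CPM (0.822, 0.730 to 0.923) and 97.8 against 113 CPM (0.831, 0.740 to 0.933). In Myog-low cells without Mki67 Exosc8 was also lower in aged libraries, 27.1 against 35.2 CPM on soft and 25.7 against 34.5 CPM on stiff. Myog-high cells without Mki67 had 18.5 against 22.0 CPM and 19.9 against 22.6 CPM of Exosc8. In Myog-middle cells without Mki67 the aged and young values of Exosc8 were nearly equal, 13.2 and 14.2 CPM on soft (0.956, 0.776 to 1.18) and 14.3 and 14.2 CPM on stiff (1.02, 0.845 to 1.24). Exosc4 in those cells was higher in aged libraries, 77.3 against 57.7 CPM on soft (ratio of summed UMIs 1.37, with an interval above 1) and 74.8 against 63.5 CPM on stiff (1.16, 1.07 to 1.27).

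**Figure D4:**
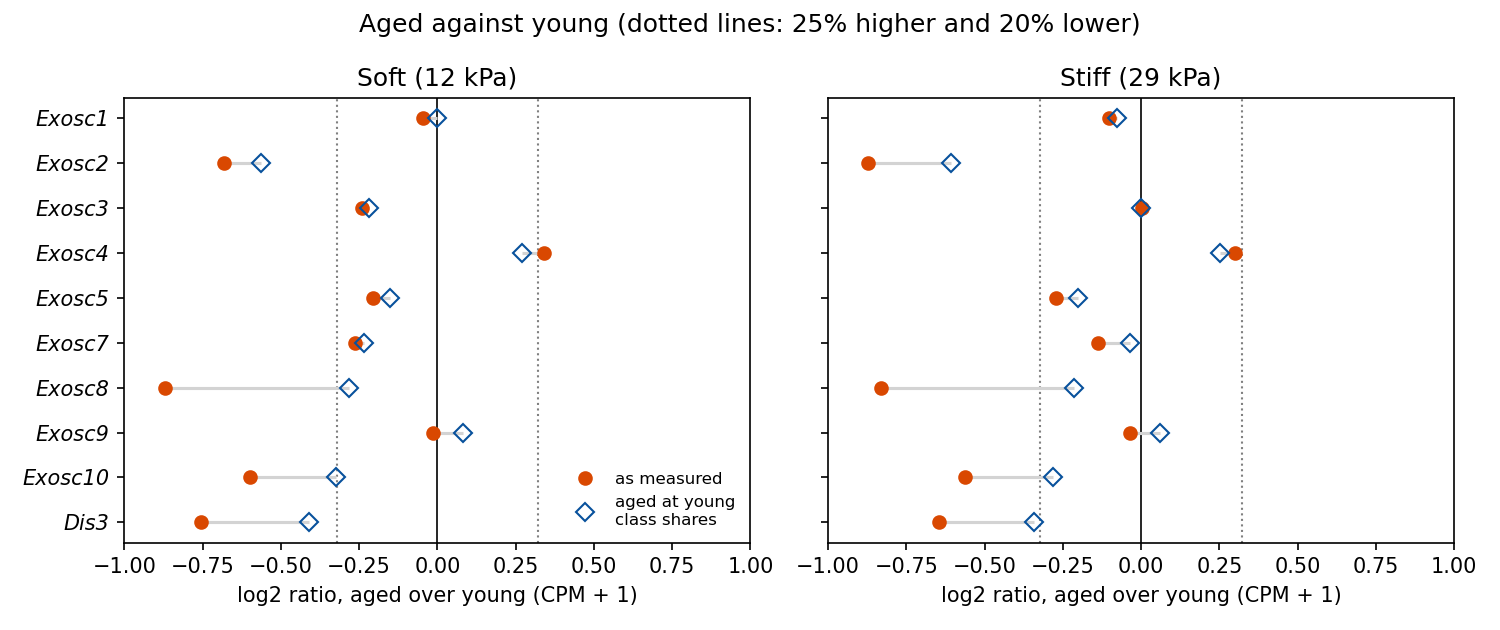
Log2 ratio of aged over young (horizontal axis, CPM + 1) of each subunit on soft (left) and stiff (right), as measured (filled) and with aged cells weighted to the class shares of the young library (open), with dotted lines at 25% higher and 20% lower. On soft the weighting moves Exosc8 from -0.87 to -0.28 and Exosc2 from -0.68 to -0.56. On stiff it moves Exosc8 from -0.83 to -0.22 and Exosc2 from -0.87 to -0.61.

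Exosc2 was set apart by its spread between cells. Its Fano factor (variance over mean of the UMIs per cell) was 19.4, 13.7, 8.97 and 10.3, and 1.10 to 2.74 for the other members in all libraries. It ranked at place 7 of 809, 16 of 697, 15 of 987 and 17 of 971 among genes with a mean within 25% above or 20% below. The 5% of cells highest in it held 42.8%, 39.8%, 45.6% and 46.1% of its level, against 23.4%, 24.9%, 32.7% and 30.9% for Exosc8. The median cell had 26.3, 28.9, 0 and 15.999 CPM, while the highest cell held 159, 97, 41 and 60 UMIs.

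Without those 5% of cells the Exosc2 means were 52.4, 63.5, 30.9 and 30.8 CPM, and the aged ones remained the lower (log2 ratio -0.74 on soft and -1.02 on stiff). The log2 difference with Mki67 was then 0.69, as a mean over the libraries and without a test. Of its high cells more lay in the high than in the middle Myog class, where 8.80%, 6.20%, 8.49% and 8.74% of the high and 1.84%, 3.43%, 2.37% and 1.58% of the middle cells were among the top 5%. In the high class without those cells the means were 46.5, 61.0, 32.1 and 35.7 CPM, against 51.7, 49.9, 31.0 and 27.5 CPM in the middle class. The gap between the classes was then smaller in every library, and young soft had the lower mean in the high class.

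**Figure D5:**
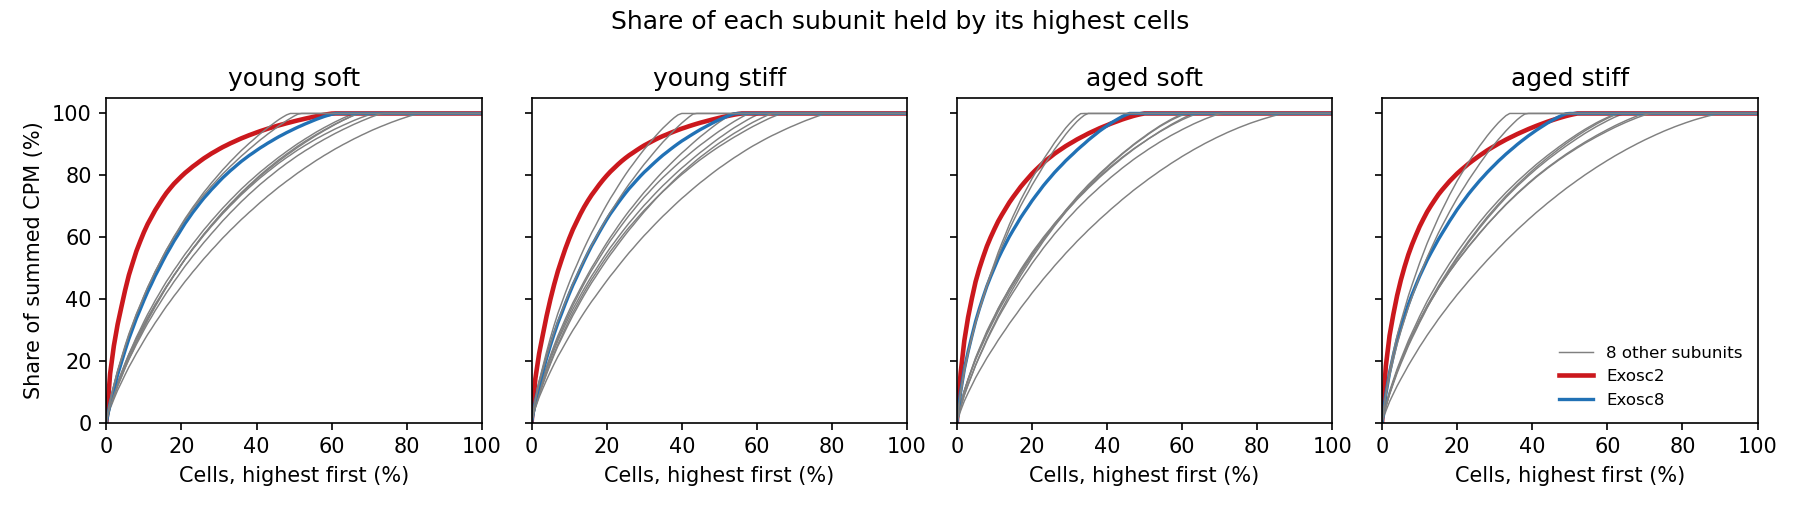
Share of each subunit's summed CPM (vertical axis) held by the cells highest in it (horizontal axis, percent of cells), for each library. The Exosc2 line (red) rises fastest, with 39.8% to 46.1% of its level in the top 5% of cells, ahead of Exosc8 (blue) and the 8 other subunits (grey).

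Some levels are uncertain for the way reads can be shared. When the final 500 bases of each transcript were cut into overlapping words of 30 bases, 12.5% for Exosc2, 11.3% for Dis3 and 4.46% for Exosc4 of the words also occurred in transcripts of other genes, and 0% for the 7 remaining members. Exosc9 overlaps the cyclin gene Ccna2 on the opposite strand over 863 bases in GENCODE M21, and Ccna2 stood at 178 CPM in Mki67-detected and 0.93 CPM in other cells, while Exosc9 itself differed by 0.32 (log2). Exosc2, Exosc3, Exosc4, Exosc5, Exosc8, Exosc10 and Dis3 also overlap genes of the opposite strand, for Exosc8 over 89 bases of Supt20, and Exosc3 overlaps the pseudogene Gm12585 on its own strand over 290 bases. No label gives the strand setting of the counting, so whether reads of the opposite-strand pairs were counted apart is not known.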

How the data were processed

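Cells of 4 cultures were sequenced as 10x Genomics 3′ libraries (reagent version 3), per the labels' protocols. The submitters' processing notes list Cell Ranger 6.1.2 and Partek but do not say which step each made. Build, annotation and strand setting: not given in the sources used here. The tables the authors deposited hold log2(CPM + 1) per cell for 13772 genes, a unit found from the values. UMIs were worked back from the steps between values, at least 99.95% of which came out whole within 0.05. A cell was kept with 500 or more genes and no more than 20% mitochondrial UMIs. No doublet caller was run, so doublets remain.

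CPM was averaged over the cells of each library and class. Library ratios have a pseudocount of 1 CPM and no test, and a call is a value 25% higher or 20% lower among genes with a mean of 5 CPM. Intervals of 95% cover counting error only, since each group is 1 library, and leave out the spread between cells. Classes were compared with limma 3.58.1 in R 4.3.3 (moderated variance with an intensity trend, 8 values, library as a block, Benjamini-Hochberg threshold 0.05 over all genes at a mean of 5 CPM), tested on simulated data. The p-values measure the spread between libraries that differ in age and substrate. Fold changes on this scale understate low genes.

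The members and gene lists were chosen with earlier results of these data known. Named genes of the cofactor, exonuclease and ribosome lists are among the 4 largest absolute differences per list and comparison. The genes most like the complex are the 6 with the highest r. Ccna2 was named after its values were seen. Transcript ends and overlaps came from GENCODE M21, promoters from RefSeq on GRCm38.p6.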

Additional observations from a re-analysis of the deposited data

How the results depend on the processing

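No paired analysis was possible because each group is 1 library and the groups share fewer than 2 replicate numbers. A fit of age with substrate as a block, which would leave 1 residual degree of freedom, was not run. The class comparisons already hold the library as a block. The limits are 1 library per group, and levels of 12.9 to 100.3 CPM, under 4 UMIs per cell on average.

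With Mki67, 9 members and 7334 genes were called, 4767 at 20 CPM or more, and 5 members with median-of-ratios scaling. With Myog, 4 members and 6866 genes were called, 4257 at 20 CPM or more, and 7 members with that scaling. Within the low Myog class 6 members and 3989 genes were called. Leaving out each library gave 6751 to 6904, 5730 to 6729 and 2499 to 3840 genes and 8 to 9, 4 to 6 and 4 to 6 members in these 3 comparisons, the 2499 without aged soft.

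Signs turned under median-of-ratios scaling for Exosc1 (-0.050) and Exosc3 (-0.044) with Mki67, and for Exosc1 (0.20), Exosc3 (0.26), Exosc5 (0.065) and Exosc7 (0.15) with Myog. With Myog they also turned for Exosc3 when a library was left out (-0.098 to 0.045; above 0 without young soft and, at 0.029, without young stiff) and with Myog classes set within each library (0.0089), and, in cells with no Mki67, for Exosc1 (0.0063), Exosc3 (0.053) and Exosc7 (0.081). The cause was not tested. Of these, only Exosc1 with Mki67 was called as reported.

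Past the call size were 186 genes for stiffness in young cells (84 with a pseudocount of 5, 47 at 20 CPM, 575 with no filter, 26 at 1.5-fold) and 437 in aged cells (191, 172, 813 and 45). For age, 4104 genes passed on soft (2244 at 20 CPM, 1699 at 1.5-fold) and 4374 on stiff (2410 and 1895). Members past the fold were 3 on soft and 2 on stiff at 20 CPM, where Exosc10 and Dis3 fall below the filter. They were again 3 and 2 at young class shares, where the share of all genes was not taken. Summed UMIs, Mki67 after thinning, 2 Mki67 UMIs and dropping cells under 1% mitochondrial UMIs left these counts within 1.5 times.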
